A study of Mus musculus with 24 samples.

Results

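The comparison described here is the knockdown of Prmt1 in undifferentiated mouse embryonic stem (ES) cells. Its effects rest on 6 of the 24 arrays of the study, chosen by their labels alone: 3 arrays of siPRMT1 ES cells and 3 arrays of siSCR ES cells. Both kinds of cell derive from D3, an established line of mouse ES cells. The siPRMT1 cells carry the knockdown of Prmt1 and the siSCR cells carry a scrambled sequence in its place. The labels do not say whether each is a single clone, or whether the knockdown persists. All cells were grown in medium with 15% serum qualified for ES cells, after 3 or more passages on plates coated with 0.1% gelatin to remove feeder cells. The 18 other arrays of the series are embryoid bodies, aggregates that differentiate without the cytokine LIF, at day 4 and after 12 h with the vehicle DMSO or with all-trans retinoic acid. Of these, the day 4 arrays, 3 of siPRMT1 and 3 of siSCR, are used below for comparison. The DMSO and retinoic acid arrays enter the fit only through the shared estimate of spread. The labels call the 3 arrays of a group biological replicates but do not say what separated them. The p-values rest on the spread within groups, pooled over the 8 groups of all 24 arrays, and not on the 6 arrays alone.

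PRMT1 is the main type I protein arginine methyltransferase of mammalian cells: it places asymmetric dimethylarginine on histone H4, where the mark goes with active genes, and on many RNA-binding proteins with arginine- and glycine-rich stretches. Mouse embryos without Prmt1 die soon after implantation, whereas ES cells can live without it. ES cells in serum are a mixture of states, among them a rare state with transcripts of the 2-cell embryo, and they are known for a weak interferon response.

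Expression is given as the deposited log2 value of a gene on each array, where a difference of 1 is a 2-fold change. Gene effects are siPRMT1 minus siSCR ± standard error from a limma fit, and a gene was called higher or lower where its adjusted p was under 0.05. Of 19938 genes tested, 1522 (7.63%) were called higher and 2225 (11.2%) lower in siPRMT1 ES cells, 18.8% in all. The counts of called list members below are to be read beside these shares. Most effects were small. The median effect was 0.31 among the genes called higher and -0.34 among those called lower, and 76 genes (0.381%) were called with a change of at least 2-fold, 12 higher (0.0602%) and 64 lower (0.321%). The values of the groups did not overlap in 7060 genes (35.4%), among them 1498 of the 1522 called higher and 2194 of the 2225 called lower. Calls were more frequent among bright genes: with genes in 4 equal bins of mean level, 3.81% were called in the dimmest bin, 14.2% and 28.5% in the middle bins and 28.6% in the brightest. The split of the calls moved with the centring of the arrays: 40.6% of the called genes were higher as deposited, and 58.8% after each array was centred on its median.

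**Figure D1:**
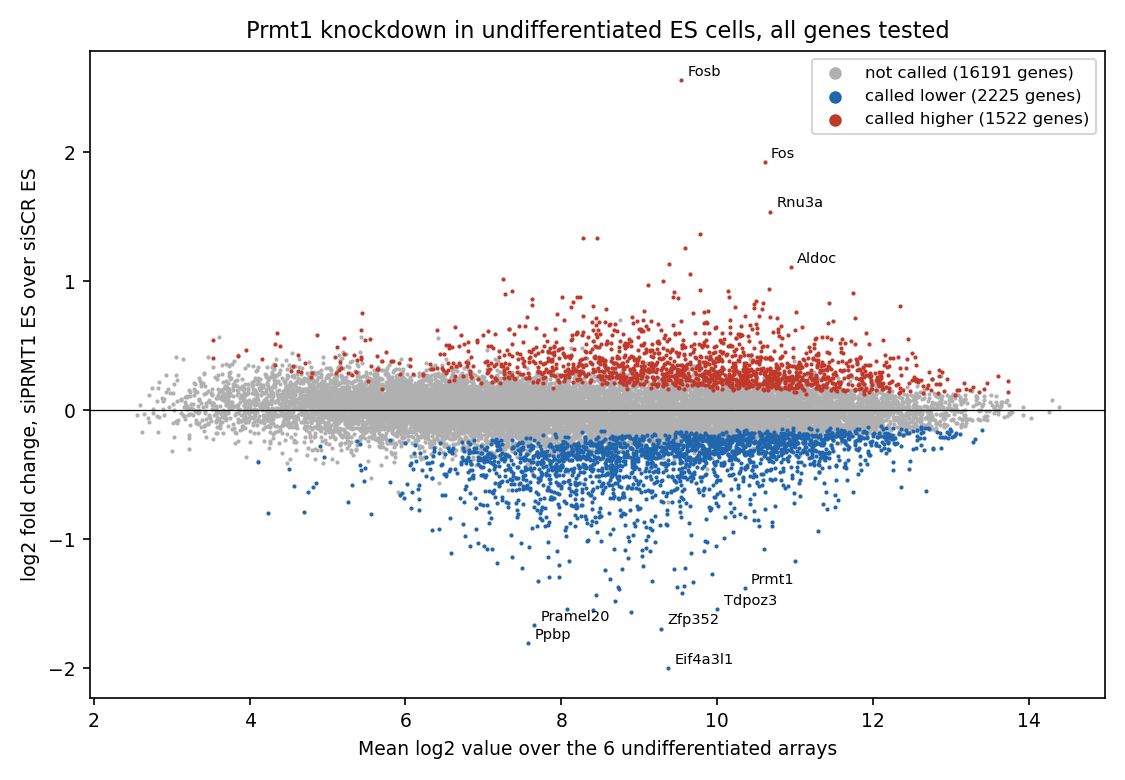
Each point is 1 of 19938 genes, with its mean log2 value over the 6 arrays of ES cells across and its effect, siPRMT1 minus siSCR in log2 units, upward. Genes called higher and lower are coloured, and Fosb, Fos and Rnu3a lie at the top while Eif4a3l1 and Ppbp lie at the bottom. The bulk of genes lies close to 0.

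The targeted gene had log2 values of 9.79, 9.62 and 9.60 in siPRMT1 ES cells, against 11.07, 10.95 and 11.10 in siSCR ES cells. Prmt1 thus stood at 38.6% of the siSCR level, with an effect of -1.37 ± 0.061 (adjusted p = 1.26e-11). A two-sided exact permutation test of this gene alone gave p = 0.1, the smallest value that the 20 regroupings of 3 against 3 arrays allow. The knockdown was larger in ES cells than in day 4 embryoid bodies, where the effect was -0.63 ± 0.061. That difference of -0.74 ± 0.086 was called (adjusted p = 2.65e-06).

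Of the other methyltransferases of the family, Prmt7 and Prmt8 were called higher and Prmt2 and Prmt3 lower. Prmt7, which places monomethylarginine, had values of 11.51, 11.55 and 11.55 in siPRMT1 ES cells, against 10.95, 10.97 and 11.03 in siSCR ES cells (0.55 ± 0.043, adjusted p = 2.55e-08). Prmt8, the closest relative of Prmt1 and a neural enzyme at the plasma membrane, had values of 7.72, 7.58 and 7.62 in siPRMT1 cells, against 7.05, 6.95 and 7.03 in siSCR cells (0.63 ± 0.08, adjusted p = 9.96e-06). The groups were apart in both genes. Prmt2 fell by 0.37 and Prmt3, which methylates a ribosomal protein, by 0.24 on the log2 scale. The main type II enzyme Prmt5 (-0.01) and the type I enzymes Carm1 (-0.06) and Prmt6 (-0.13) were not called. Among 11 partners and readers 4 were higher and 2 lower. Those higher were the PRMT1 cofactors Btg1 (0.29) and Btg2 (0.33) and the enzymes that degrade asymmetric dimethylarginine, Ddah1 (0.32) and Ddah2 (0.50). Those lower were the PRMT5 partners Wdr77 (-0.21) and Clns1a (-0.19). Of 22 RNA-binding and chromatin proteins known to be methylated on arginine, Ewsr1 was higher (0.18), Caprin1 lower (-0.15) and 20 were not called.

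Arrays of a group correlated at 0.9967 to 0.9978 within siPRMT1 ES cells and at 0.9960 to 0.9980 within siSCR ES cells, against 0.9904 to 0.9940 between the groups. Of 12 markers of undifferentiated ES cells 6 were called higher and 0 lower. Their mean log2 value was 12.02 to 12.04 on the siPRMT1 arrays and 11.83 to 11.90 on the siSCR arrays, against 11.79 to 11.98 on the day 4 arrays. These markers did not set the ES arrays apart from day 4: 7 of the 12 were higher in siPRMT1 ES cells than in siPRMT1 day 4 bodies, and 3 in siSCR ES cells than in siSCR day 4 bodies. Of 18 fibroblast and feeder markers 12 were called lower and 1, Ccn2, higher, with array means of 9.52 to 9.56 in siPRMT1 and 9.82 to 9.88 in siSCR, against 8.49 to 8.81 on the day 4 arrays. Their summed linear signal was 34576 to 35774 in siPRMT1 and 38861 to 40206 in siSCR. Trophectoderm, mesoderm and neural markers held 1 call higher and 1 lower among 18 genes. In such bulk RNA fewer cells of a type and less RNA per cell cannot be told apart.

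The 2 largest rises were those of immediate early genes, which cells transcribe within minutes of a stimulus without new protein. Fosb had log2 values of 10.86, 10.87 and 10.72 in siPRMT1 ES cells, against 8.18, 8.37 and 8.23 in siSCR ES cells (2.56 ± 0.097, adjusted p = 1.03e-12). Fos had values of 11.54, 11.63 and 11.57 in siPRMT1 cells, against 9.70, 9.58 and 9.67 in siSCR cells (1.93 ± 0.11, adjusted p = 6.29e-10). All siPRMT1 arrays lay above every siSCR array in both genes, whose proteins pair with JUN to form the transcription factor AP-1. Atf3, a stress-induced factor that binds cyclic AMP response elements (CRE), had values of 10.27, 10.22 and 10.18 in siPRMT1 cells, against 8.90, 8.97 and 9.03 in siSCR cells (1.26 ± 0.077, adjusted p = 1.11e-09).

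The 250 bases before the start of these 3 genes are shown because Fosb and Fos lead the rises and Atf3 is the other AP-1 gene among the 15 largest, read on the gene's strand from RefSeq on GRCm38.p6. Capitals mark the CRE half-site TGACG on either strand. It was searched for after the full element TGACGTCA had been found in none of the 3 windows.
Fos: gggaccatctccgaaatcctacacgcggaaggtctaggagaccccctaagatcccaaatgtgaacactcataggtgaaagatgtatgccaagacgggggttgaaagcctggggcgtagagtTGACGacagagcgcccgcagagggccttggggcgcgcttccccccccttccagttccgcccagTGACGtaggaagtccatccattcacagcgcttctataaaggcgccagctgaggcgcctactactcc
Fosb: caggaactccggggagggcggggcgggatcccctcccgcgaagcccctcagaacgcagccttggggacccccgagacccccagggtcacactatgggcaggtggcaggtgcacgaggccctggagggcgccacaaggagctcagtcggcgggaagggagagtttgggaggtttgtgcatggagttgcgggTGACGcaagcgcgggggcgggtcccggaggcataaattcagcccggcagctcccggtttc
Atf3: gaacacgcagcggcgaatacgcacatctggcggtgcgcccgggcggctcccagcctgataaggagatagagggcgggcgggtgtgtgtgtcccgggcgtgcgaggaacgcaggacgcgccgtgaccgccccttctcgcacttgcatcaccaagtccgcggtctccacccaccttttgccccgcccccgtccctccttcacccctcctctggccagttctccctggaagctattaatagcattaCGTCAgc
The windows lie at chr12:85473640-85473889 on the plus strand for Fos, chr7:19310046-19310295 on the minus strand for Fosb and chr1:191183334-191183583 on the minus strand for Atf3. The half-sites begin 129 and 66 bases before the start of Fos, 60 before that of Fosb and 7 before that of Atf3. In windows of 250 bases before to 50 after the start, 61.1% of the 36 immediate early genes with a window held TGACG on either strand, against 28% of 15614 genes. The full element TGACGTCA, which contains the half-site, was held by 11.1% and 2.72%. The CArG box bound by serum response factor was held by 11.1% and 1.63%. A match is a description of letters and no evidence of binding, and the shares are of the whole list, called or not.

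In the whole list of 47 immediate early genes 20 were called higher and 3 lower, with a median effect of 0.17 against 0.0061 over all genes tested. Among 12 AP-1 subunits 6 were higher, which besides Fosb, Fos and Atf3 were Jun (0.50 ± 0.089), Jdp2 (0.48 ± 0.081) and Jund (0.41 ± 0.063). Fosl1, a FOS relative that accumulates later after a stimulus, was the single AP-1 gene called lower (-0.67 ± 0.14, adjusted p = 0.00128). Junb (0.20) and Fosl2 (-0.21) were not called. Of 15 other transcription factors 6 were higher: Klf6 (0.64), the nuclear receptor Nr4a1 (0.59), Egr2 (0.41), Ier2 (0.38), Klf10 (0.38) and Egr1 (0.32). Myc, a driver of ES cell growth, was lower, with 11.52, 11.40 and 11.39 in siPRMT1 cells, against 11.80, 11.87 and 11.86 in siSCR cells (adjusted p = 0.00356).

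The third subgroup holds 20 genes that feed back on the signal or act on the cell, of which 8 were higher and Plk3 was lower (-0.36). Ccn2, a secreted matrix protein and a target of the factor YAP, had 12.17, 12.22 and 12.23 in siPRMT1 cells, against 11.19, 11.36 and 11.34 in siSCR cells (0.91 ± 0.071). Dusp1, a phosphatase that switches off MAP kinases, had 12.71, 12.77 and 12.77 in siPRMT1 cells, against 11.84, 12.01 and 11.96 in siSCR cells (0.81 ± 0.071). Each siPRMT1 array was above each siSCR array in both. The others were Rhob (0.66), Zfp36 (0.59), Gadd45b (0.58), Arc (0.54), Btg2 (0.33) and Sik1 (0.23). The direct ERK feedback genes Dusp6 (0.14), Spry4 (0.05) and Spred1 (0.05) were not called, nor were Dusp4 (0.03) and Spry2 (-0.07).

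**Figure D2:**
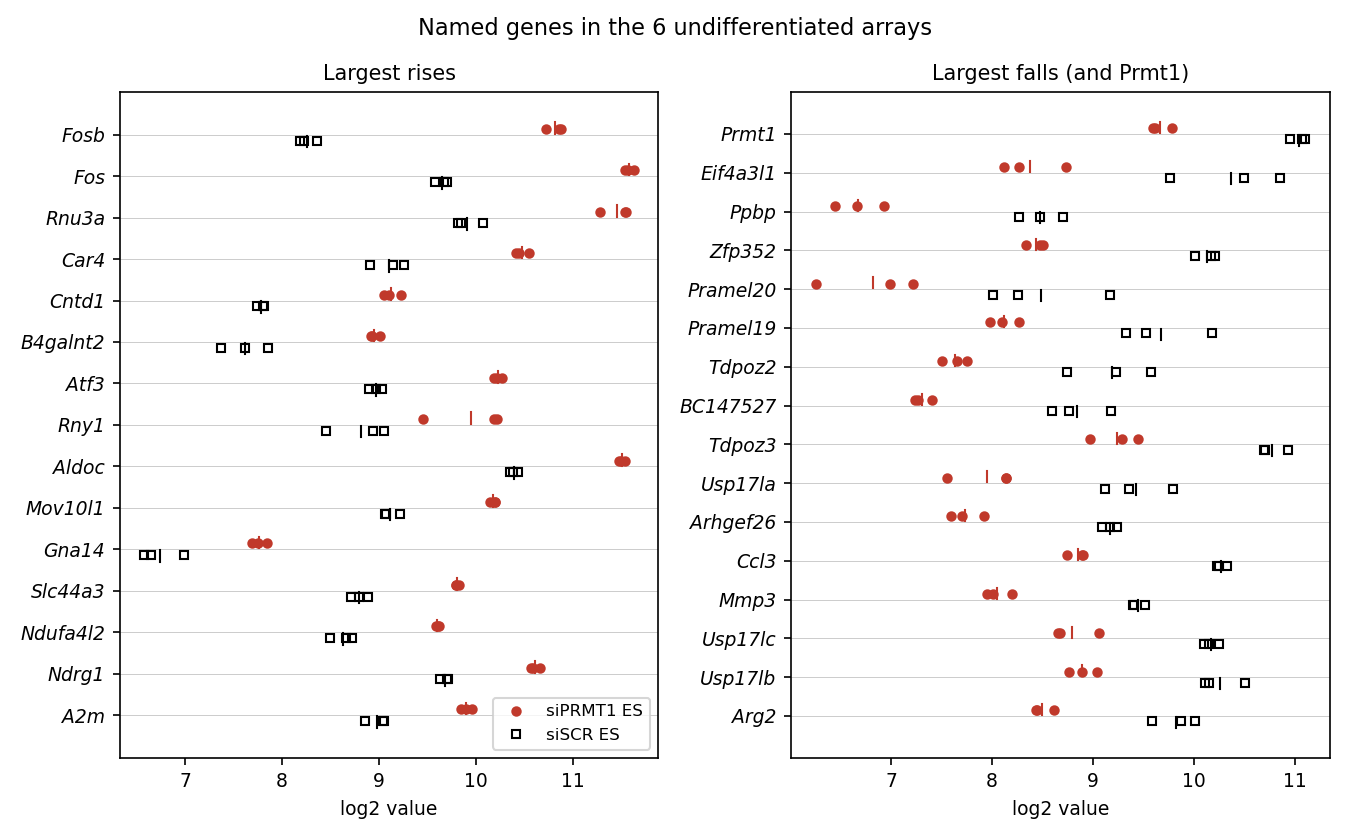
Points are the log2 values of Prmt1 and of the 15 largest rises and 15 largest falls on single arrays of ES cells, red circles for siPRMT1 and open squares for siSCR, with 3 arrays each and a tick at each mean. The groups do not overlap in these genes, which the rule for naming them required of the rises and falls.

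The remaining genes of large rise had varied roles. Rnu3a, a gene of the U3 RNA that guides ribosomal RNA cleavage, had 11.54, 11.53 and 11.28 in siPRMT1 cells, against 9.85, 9.81 and 10.07 in siSCR cells (1.54 ± 0.11, adjusted p = 1.13e-08), and it is described with the small RNA genes below. Car4, a carbonic anhydrase at the cell surface, had 10.55, 10.45 and 10.41 in siPRMT1 cells, against 9.26, 8.91 and 9.14 in siSCR cells (1.37 ± 0.12). Cntd1, a cyclin-like gene needed for crossing over in meiosis, had 9.23, 9.10 and 9.05 in siPRMT1 cells, against 7.80, 7.75 and 7.82 in siSCR cells (1.34 ± 0.12). That the arrays of Rnu3a, Car4 and Cntd1 did not overlap between the groups was a condition for naming them. The glycosyltransferase B4galnt2 (1.34 ± 0.14), the choline transporter-like gene Slc44a3 (1.00 ± 0.074), the G protein subunit Gna14 (1.02 ± 0.099) and the protease inhibitor A2m (0.92 ± 0.085) were also among the 15.

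Genes of the integrated stress response, in which phosphorylated eIF2 favours the translation of the factor ATF4 and ATF4 induces genes of amino acid supply, were called higher in 20 of 36 cases and lower in 0. Their median effect was 0.17, and the effects were modest, up to 0.58. Amino acid synthesis and transport gave 9 of 14, or 3 when only the arrays of ES cells were fitted. Aldh18a1 of proline synthesis had 11.80, 11.81 and 11.80 in siPRMT1 cells, against 11.37, 11.44 and 11.44 in siSCR cells (0.39 ± 0.055). Psat1 (0.36) and Phgdh (0.23) of serine synthesis, Cbs (0.29) and Cth (0.23) of cysteine synthesis, asparagine synthetase Asns (0.16) and the transporters Slc7a3 (0.18), Slc3a2 (0.17) and Slc7a5 (0.16) were the others. Aldh18a1, Psat1 and Slc3a2 lie on chromosome 19, which is described on its own below. The cystine transporter Slc7a11, often a strong ATF4 target, was not called and had the opposite sign (-0.33 ± 0.15, adjusted p = 0.137).

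Of 12 factors and feedback genes of the same response 6 were higher, led by Chac1, a glutathione-degrading enzyme (0.58 ± 0.057), and Ppp1r15a, which restarts translation (0.34 ± 0.09). Trib3 (0.26), Sesn2 (0.30), Ddit4 (0.28) and Vldlr (0.27) were the others. Neither Atf4 (0.19) nor Ddit3 (-0.05), which encodes CHOP, was called. That count of 6 rested on single arrays: it was 3 without siSCR replicate 2 and 2 without siPRMT1 replicate 1. Of 10 tRNA synthetases 5 were higher, among them Cars (0.37) and Lars (0.34), and 3 of them without siSCR replicate 3 or with only the arrays of ES cells fitted. The chaperone genes of the endoplasmic reticulum gave a single call in each direction among 16, Herpud1 higher (0.41) and Pdia4 lower (-0.19), while Hspa5 was at -0.05. Heat shock genes gave 0 higher and 4 lower of 13, Hsph1 the lowest (-0.45), and 2 lower with only the arrays of ES cells fitted or with median centring. The heat shock genes were thus called in 30.8%, near the 28.6% of genes in the brightest bin.

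Targets of the hypoxia-inducible factors, together with glycolysis, gave 18 higher and 2 lower of 45, with a median of 0.12. Aldoc, a glycolytic aldolase, had 11.54, 11.47 and 11.50 in siPRMT1 cells, against 10.44, 10.39 and 10.36 in siSCR cells (1.11 ± 0.058, adjusted p = 1.65e-10). Ndufa4l2, which dampens complex I in hypoxia, had 9.59, 9.61 and 9.60 in siPRMT1 cells, against 8.72, 8.50 and 8.66 in siSCR cells (0.98 ± 0.10). Ndrg1, a differentiation and hypoxia gene, had 10.59, 10.56 and 10.66 in siPRMT1 cells, against 9.63, 9.70 and 9.71 in siSCR cells (0.93 ± 0.082). None of these groups overlapped. Bnip3, a mitophagy receptor (0.76 ± 0.062), Pdk1, which keeps pyruvate out of mitochondria (0.57 ± 0.046), P4ha1 of collagen hydroxylation (0.56 ± 0.093), the phosphofructokinase Pfkl (0.54 ± 0.051) and the oxygen sensor Egln3 (0.50 ± 0.059) followed. The hypoxia markers Slc2a1 (-0.0013), Ldha (0.01) and Adm (0.11) were not called, and Hif1a itself was lower (-0.20).

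The promoter of Bnip3 is shown as the example of a hypoxia target, with the core ACGTG of the hypoxia response element on either strand in capitals.
Bnip3: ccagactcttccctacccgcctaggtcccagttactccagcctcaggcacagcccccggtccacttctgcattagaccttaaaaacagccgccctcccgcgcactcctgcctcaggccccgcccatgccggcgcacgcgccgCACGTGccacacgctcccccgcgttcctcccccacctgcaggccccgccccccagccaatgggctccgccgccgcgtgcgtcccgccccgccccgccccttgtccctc
This window lies at chr7:138909507-138909756 on the minus strand, and its 2 matches, 108 and 107 bases before the start, overlap on opposite strands. The core was present in 68.4% of the 38 genes of the list with a window and in 24.4% of all genes with one. That share covers members called or not, so it describes the list and not the knockdown.

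Sterol synthesis gave 12 higher and 1 lower of 27, with a median of 0.15. The regulators Srebf2 (0.37 ± 0.053), the sterol-sensing transcription factor, and Insig1 (0.45 ± 0.066), its retention partner, were higher. Of 18 genes of the enzymes and uptake 10 were, led by the reductase Tm7sf2 (0.77 ± 0.06, on chromosome 19), Cyp51 (0.42 ± 0.084) and Msmo1 (0.41 ± 0.048). Hsd17b7 was lower (-0.26). Squalene epoxidase Sqle (0.15) and Idi1 (0.12) were not called.

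The falls were led by genes of the 2-cell-like state, in which rare ES cells transcribe genes of the cleavage-stage embryo. Of 39 tested members, out of 55 listed, 22 were called lower and 3 higher, with a median of -0.58. Of the 12 transcription factors listed for this state only 1, Zfp352, was tested, so the others are not described here. Zfp352, a zinc finger gene of the 2-cell embryo, had 8.34, 8.50 and 8.47 in siPRMT1 cells, against 10.21, 10.16 and 10.01 in siSCR cells (-1.69 ± 0.09, adjusted p = 2.13e-10). Eif4a3l1, an eIF4A3-like gene and the largest fall of all, had 8.73, 8.26 and 8.12 in siPRMT1 cells, against 10.86, 9.76 and 10.50 in siSCR cells (-2.00 ± 0.23, adjusted p = 3.07e-06). Every siPRMT1 array lay below every siSCR array in both, and the siSCR arrays of Eif4a3l1 were the more scattered.

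All 4 ubiquitin proteases of the Usp17 family fell: Usp17la (-1.48 ± 0.19), Usp17lc (-1.37 ± 0.13), Usp17lb (-1.36 ± 0.12) and Usp17ld (-1.08 ± 0.17). Of 15 PRAME family genes 4 were lower, or 1 when the dimmest genes were left out, with Pramel20 at 6.25, 6.99 and 7.21 in siPRMT1 cells, against 9.17, 8.26 and 8.01 in siSCR cells (-1.66 ± 0.25), and Pramel19 (-1.56 ± 0.19), Pramel17 (-1.10 ± 0.18) and Pramel6 (-1.07 ± 0.12) the others. Pramel1 (0.39) and Pramel13 (0.23) were higher, and Pramel7, a naive pluripotency gene, was not called (-0.05). Tdpoz2 (-1.55 ± 0.16) and Tdpoz3 (-1.54 ± 0.16) of the speckle-type POZ genes were lower and Tdpoz1 (0.10) and Tdpoz8 (-0.52 ± 0.23) were not called. A dimmer probe set of Tdpoz2 had -0.36 (adjusted p = 0.0619). These families are made of near-identical copies whose probes may be shared, so the members are not independent measurements.

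Other members of the 2-cell-like list gave 11 lower and 1 higher of 15. BC147527 had 7.27, 7.24 and 7.41 in siPRMT1 cells, against 9.18, 8.60 and 8.76 in siSCR cells (-1.54 ± 0.13). Arg2, the mitochondrial arginase, had 8.62, 8.45 and 8.43 in siPRMT1 cells, against 10.01, 9.59 and 9.88 in siSCR cells (-1.33 ± 0.097). Obox6 (-1.29 ± 0.27), Tcstv3 (-1.18 ± 0.092), Calcoco2 (-0.97 ± 0.12), Tmem92 (-0.86 ± 0.16) and Ubtfl1 (-0.62 ± 0.12) moved the same way. Neither Eif1a (-0.13) nor Obox5 (-0.06) was called. In the day 4 bodies the Usp17 genes had array means of 6.96 to 7.02 in siPRMT1 and 6.80 to 6.97 in siSCR, below those of ES cells, which were 8.26 to 8.68 in siPRMT1 and 9.62 to 9.96 in siSCR.

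Interferon-stimulated genes block viral replication and are read out through the factors STAT and IRF. The interferon list holds such genes together with sensors, receptors and signalling factors. Of its 75 genes tested, 39 were called lower and 1 higher, with a median of -0.29. The 31 antiviral effectors gave 19 lower, with array means of 8.37 to 8.43 in siPRMT1 and 8.77 to 8.87 in siSCR. Samd9l, a restriction factor, had 6.70, 6.52 and 6.32 in siPRMT1 cells, against 7.59, 7.66 and 7.49 in siSCR cells (-1.07 ± 0.14, adjusted p = 1.09e-05). Rtp4 had 8.09, 8.17 and 7.74 in siPRMT1 cells, against 9.10, 8.91 and 9.02 in siSCR cells (-1.01 ± 0.15), and Trim30a had 8.65, 8.68 and 8.59 in siPRMT1 cells, against 9.74, 9.32 and 9.55 in siSCR cells (-0.90 ± 0.13). All 3 had groups apart. The RNA-binding genes Ifit1 (-0.73 ± 0.18), Ifit2 (-0.62 ± 0.15) and Ifit3 (-0.61 ± 0.11), Mx2 (-0.83 ± 0.17), Oas2 (-0.75 ± 0.12) and Ifi27 (-0.92 ± 0.092) were lower too. Bst2, which tethers virions, was the single gene higher (0.35 ± 0.091). Rsad2 (-0.11), Mx1 (-0.20) and Oas1a (-0.26) were not called.

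Promoters of 3 of these effectors are shown because they hold the interferon-stimulated response element (GAAA, any 2 bases and GAAA again), in capitals on either strand.
Ifit1: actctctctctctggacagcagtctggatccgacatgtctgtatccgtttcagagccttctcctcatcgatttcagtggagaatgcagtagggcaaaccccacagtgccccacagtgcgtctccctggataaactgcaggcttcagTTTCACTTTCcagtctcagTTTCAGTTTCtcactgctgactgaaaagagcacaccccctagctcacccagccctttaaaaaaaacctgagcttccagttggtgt
Ifit3: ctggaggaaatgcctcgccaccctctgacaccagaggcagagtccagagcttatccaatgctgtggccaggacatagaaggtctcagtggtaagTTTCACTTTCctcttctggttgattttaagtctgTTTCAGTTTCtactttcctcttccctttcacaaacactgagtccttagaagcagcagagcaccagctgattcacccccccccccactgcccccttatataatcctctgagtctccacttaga
Trim30a: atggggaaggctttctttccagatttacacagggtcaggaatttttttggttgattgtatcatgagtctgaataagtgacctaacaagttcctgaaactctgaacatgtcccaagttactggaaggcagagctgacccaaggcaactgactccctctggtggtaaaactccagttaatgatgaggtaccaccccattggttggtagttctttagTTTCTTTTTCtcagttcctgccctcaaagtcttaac
They lie at chr19:34640639-34640888 on the plus strand for Ifit1, chr19:34583279-34583528 on the plus strand for Ifit3 and chr7:104465194-104465443 on the minus strand for Trim30a, and the elements begin 104 and 85, 156 and 122, and 36 bases before the start. Trim30a has a second window in the table, which is not printed. The element was found in 36.8% of the 57 interferon genes with a window, in 39.1% of the 23 effectors with a window, and in 3.89% of all genes with one. Among effectors with a window, 4 that were called lower held it and 8 did not, and 4 that were not called held it and 6 did not. Bst2, which was called higher, held it as well.

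Of 10 sensors of foreign RNA and DNA 8 were lower, among them Tlr3 (-0.97 ± 0.11), the adaptor Sting1 (-0.87 ± 0.08) and Ddx58, which encodes RIG-I (-0.72 ± 0.083). Leaving out single arrays cut these 8 to 3 (without siSCR 3, siPRMT1 2 or siPRMT1 3), 4 (without siSCR 1) or 5 (without siSCR 2 or siPRMT1 1). They were 3 with arrays centred on the median or scaled to one SD, and 5 after quantile normalisation or with only the arrays of ES cells fitted. GTPases and antigen presentation gave 8 of 19, or 5 without siSCR 1, with Irgm1 the lowest (-1.13 ± 0.14), followed by H2-Q4 (-0.83 ± 0.14) and Psmb10 (-0.56 ± 0.12). Upstream, Usp18, a target and brake of the pathway (-0.97 ± 0.11), Irf7 (-0.37), Irf9 (-0.34) and Ifngr2 (-0.31) were lower. This count of 4 of 15 was 1 without siSCR 1 and 2 without siSCR 3 or siPRMT1 2. Ifnar1 (0.01), Jak1 (-0.04) and Stat2 (-0.12) were not called.

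Fibroblast and feeder genes were lower in the same arrays: 21 of 35 were called lower and 0 higher, with a median of -0.28, beside the marker means given above. Ccn2, the marker that was called higher, is not in this list. S100a4 (-1.01 ± 0.11), the mesenchymal factor Prrx1 (-1.01 ± 0.13), smooth muscle actin Acta2 (-0.96 ± 0.15), Thy1 (-0.83 ± 0.069) and Twist2 (-0.82 ± 0.11) led the 12 of 16 cell markers, and tenascin Tnc (-0.94 ± 0.16), Lox (-0.64 ± 0.14) and Fbln2 (-0.63 ± 0.096) led the 9 of 19 matrix genes. The collagens Col1a1 (-0.30) and Col1a2 (-0.28) fell less, and Col3a1 (-0.06) and Fn1 (-0.06) were not called. Of the 15 largest falls over all genes, the chemokines Ppbp and Ccl3 and the matrix metalloprotease Mmp3 are products of leukocytes, platelets or fibroblasts. Ppbp had 6.66, 6.93 and 6.44 in siPRMT1 cells, against 8.70, 8.47 and 8.27 in siSCR cells (-1.80 ± 0.13), Ccl3 had 8.91, 8.89 and 8.74 in siPRMT1 cells, against 10.32, 10.23 and 10.24 in siSCR cells (-1.42 ± 0.10), and Mmp3 had 8.20, 8.01 and 7.95 in siPRMT1 cells, against 9.40, 9.52 and 9.40 in siSCR cells (-1.39 ± 0.092). The guanine nucleotide exchange factor Arhgef26 (-1.43 ± 0.12) was another of the 15.

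Fibroblast markers fell beside the interferon, matrix, chemokine and 2-cell-like genes, and their array means did not overlap between siPRMT1 and siSCR ES cells. A further fit took as covariate the mean of the 35 genes of the fibroblast and feeder list on each array. Its median standard error was 0.2982, against 0.0932 without the covariate, and 39 genes were called. Of the 30 genes with the largest rises and falls 7 were called in that fit, and 10 list members were. All 30 had the same sign as without the covariate, with effects larger in 16 and smaller in 14. Prmt1 had -1.34 ± 0.20 (adjusted p = 0.0162). The part of the markers in the results was not tested beyond this fit.

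**Figure D3:**
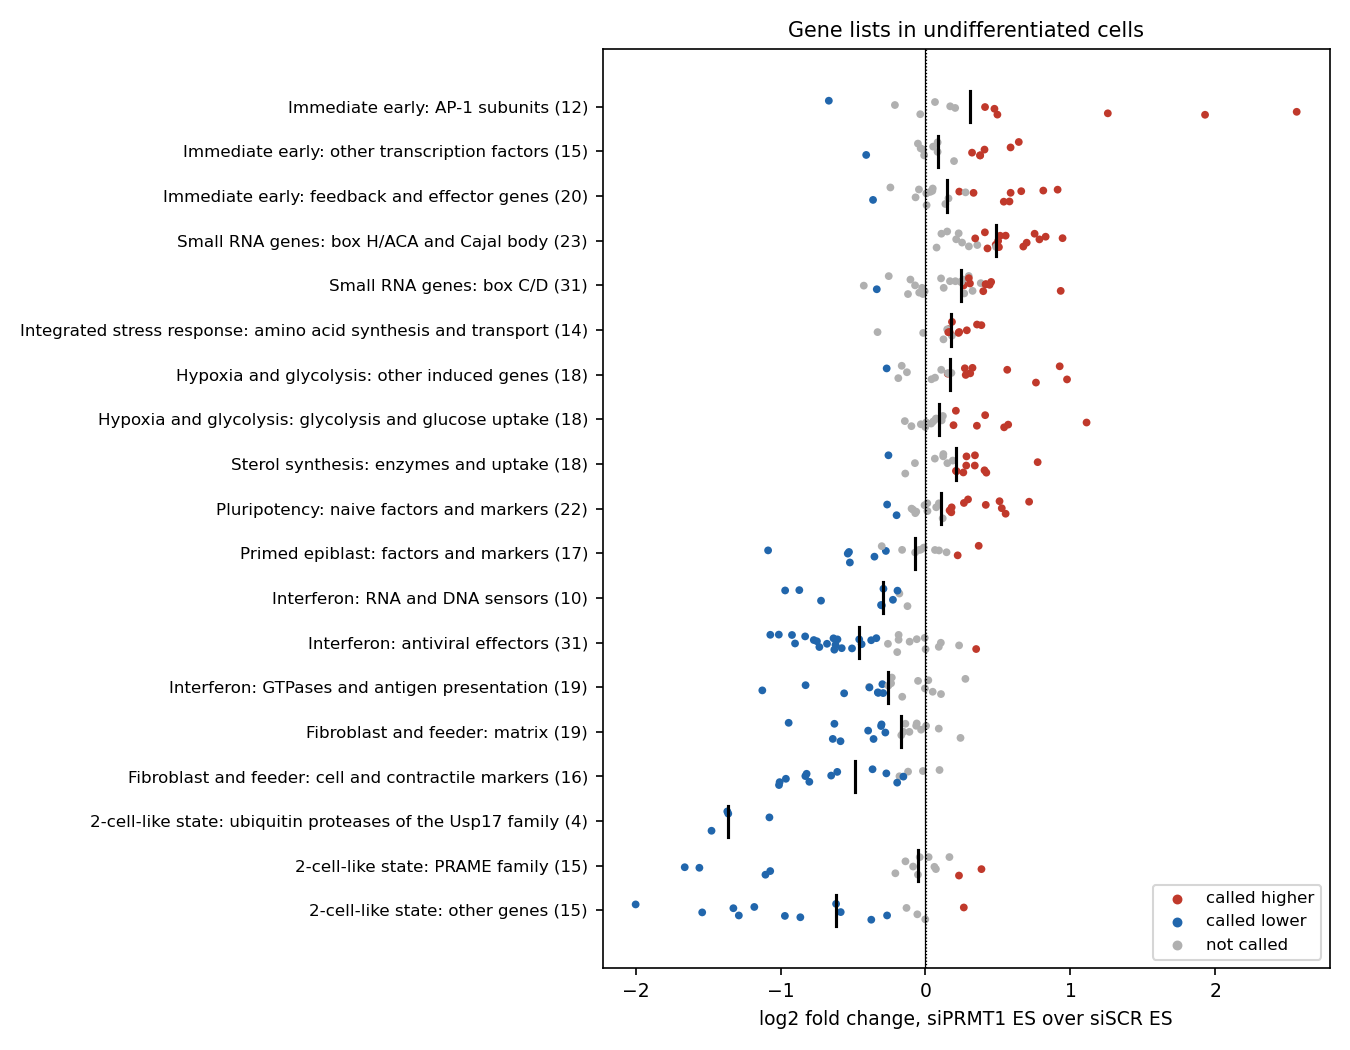
Each line is a gene list with the effects of its members in ES cells, siPRMT1 minus siSCR in log2 units, across. Members called higher or lower are coloured, others are grey and the list's median is marked; 2-cell-like and interferon genes lie mostly left of 0, immediate early and small RNA genes mostly right.

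Of the pluripotency genes, 12 were higher and 5 lower of 31. Among 22 naive genes, those of the state before implantation, 10 were higher and 2 lower. Klf2 had 11.15, 11.17 and 11.08 in siPRMT1 cells, against 10.31, 10.38 and 10.56 in siSCR cells (0.71 ± 0.067), and Klf4 had 11.90, 11.88 and 11.85 in siPRMT1 cells, against 11.30, 11.32 and 11.35 in siSCR cells (0.55 ± 0.12). Tcl1 (0.53), the LIF target Socs3 (0.51), the LIF receptor Lifr (0.29) and Esrrb (0.17) were higher, and Tbx3 (-0.26) and Fbxo15 (-0.20) lower. Of 9 core genes, Pou5f1, which encodes OCT4 (0.17 ± 0.041), and Dppa4 (0.26 ± 0.074) were higher, Dppa2 (-0.25), Trim28 (-0.18) and Sall4 (-0.14) were lower, and Nanog (-0.06) and Sox2 (0.19) were not called. Primed epiblast genes, of the state after implantation, gave 6 lower and 2 higher of 17. Cdh2, N-cadherin, had 8.59, 8.66 and 8.56 in siPRMT1 cells, against 9.79, 9.64 and 9.64 in siSCR cells (-1.09 ± 0.11). Lefty1 (-0.54), Lefty2 (-0.52), Zic2 (-0.53) and Dnmt3b (-0.27) were lower as well, whereas Otx2 was higher (0.37) and Fgf5 (0.07) was not called.

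Germ cell genes gave 13 higher and 2 lower of 46, or 32.6% called, against 18.8% of all genes. Mov10l1, a helicase of the piRNA pathway that silences transposons, had 10.20, 10.20 and 10.14 in siPRMT1 cells, against 9.22, 9.07 and 9.06 in siSCR cells (1.06 ± 0.077). Ddx4, or Vasa (0.66 ± 0.14), was higher as well, whereas Asz1 was lower (-0.43) and Dazl was not called (-0.06). Of 22 meiosis genes 6 were higher and 0 lower: besides Cntd1 these were Sycp3 of the synaptonemal complex (0.90 ± 0.24), the meiotic cohesin Stag3 (0.83 ± 0.073), the recombinase Dmc1 (0.62 ± 0.092), Meiob (0.60 ± 0.21) and Syce2 (0.33 ± 0.06). Stra8, the gene that starts meiosis, was not called (-0.12). Of the primordial germ cell factors Prdm1 (0.36) and Dnd1 (0.30) were higher and Kitl lower (-0.82).

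Genes of later lineages gave calls in both directions. Endoderm genes were called in 34.3%, retinoic acid genes in 32.5% and trophectoderm genes in 33.3%. Mesoderm and neural genes were called in 23.8% and imprinted genes in 38.9%, against 18.8% of all genes. Endoderm gave 9 higher and 3 lower of 35, with Gata4 (0.46 ± 0.074), Gata6 (0.29 ± 0.055) and Apoe (0.45 ± 0.053) higher and Afp (-0.04) and Sox17 (0.17) not called. The 8 primitive endoderm markers had array means of 10.23 to 10.26 in siPRMT1 and 10.09 to 10.13 in siSCR. Retinoic acid genes gave 12 lower and 1 higher of 40: the receptors Rarb (-0.40), Rarg (-0.39) and Rxrg (-0.36), the targets Hoxa5 (-0.77), Nr2f1 (-0.71) and Nr2f2 (-0.72) and others were lower, and transglutaminase Tgm2 was higher (0.62). Trophectoderm genes gave 2 higher and 4 lower of 18, where the 4 were 1 without siSCR 3 or siPRMT1 2 and 2 without siSCR 1, siPRMT1 1 or siPRMT1 3. Mesoderm and neural genes gave 1 higher and 4 lower of 21. Imprinted genes gave 2 higher and 5 lower of 18, among them Sgce (0.88) and Mest (-0.73).

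Among 62 genes of signalling pathways 7 were higher and 5 lower, 19.4% called, near the 18.8% of all genes. Wnt genes gave 0 calls of 18 in limma, with Axin2 at -0.08 and Sp5 at -0.02. Groups were apart in 7 of them (38.9%), against 35.4% of all genes, and 3 had an unadjusted p under 0.05 (16.7%), against 28.6% of all genes. FGF and ERK genes gave 4 higher and 1 lower of 19, with 2 higher without siSCR 1 or siPRMT1 3. Of 25 cell cycle genes of G1 and S 6 were lower, among them the cyclins Ccnd2 (-0.65 ± 0.057) and Ccnd1 (-0.59 ± 0.056) and the kinase Cdk6 (-0.50 ± 0.072), and the inhibitor Cdkn1b was higher (0.40 ± 0.053). Of 20 genes of G2 and M 7 were higher, with effects up to 0.29 in Cenpa, and 3 were without siSCR 2, siSCR 3 or siPRMT1 1 or with only the arrays of ES cells fitted, and 4 without siPRMT1 2. The replicative helicase genes, such as Mcm2 (-0.04) and Mcm5 (-0.01), were not called. In all, 28% of the G1 and S genes and 35% of the G2 and M genes were called. The share of G1 and S is near the 28.6% of genes in the brightest bin, where the median level of both lists lies. Targets of p53 gave 2 higher and 3 lower of 19, or 26.3% called, with Mdm2 lower (-0.32).

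Ribosomal protein genes gave 5 higher and 1 lower of 57, or 10.5% called, against 18.8% of all genes and 28.6% of those in the brightest bin. The 5 higher became 15 with median centring, 13 with arrays scaled to one SD, 14 with a trended prior, 18 with array weights, 4 with only the arrays of ES cells and 0 with the fibroblast covariate, and stayed 5 after quantile normalisation. Respiratory chain genes gave 12 higher and 5 lower of 77, or 22.1%, against 18.8% of all genes and 28.6% of those in the brightest bin. The 5 lower were 3 without siSCR 1 or siSCR 3 or with only the arrays of ES cells, 2 without siPRMT1 2 or siPRMT1 3, 2 with median centring or scaling to one SD and 10 with array weights. Of the 12 higher, Ndufs8, Ndufv1, Ndufb8 and Cox8a lie on chromosome 19. Replication-dependent histones gave 0 higher and 5 lower of 30, or 16.7% called, near that share of all genes, with H2bc1 (-0.74) and H2bc4 (-0.64) lowest. DNA methylation enzymes gave 1 higher, Dnmt3l (0.35), and 2 lower of 10, or 30% called, near the 28.6% of the brightest bin. Metal and oxidative stress genes gave 5 higher and 3 lower of 15, and 3 higher without siSCR 2, among them Gstm1 (0.55) and Txnip (0.41).

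Small non-coding RNA genes were called higher in 30 of 66 cases and lower in 1, with a median of 0.28. Small nucleolar RNAs guide the modification of ribosomal RNA, box C/D RNAs methylation and box H/ACA RNAs pseudouridylation, and most lie in introns of host genes. Of 23 box H/ACA and Cajal body RNAs 14 were higher, with array means of 10.66, 10.76 and 10.53 in siPRMT1, against 10.15, 10.20 and 10.23 in siSCR. Snora69 had 11.15, 11.28 and 11.00 in siPRMT1 cells, against 10.15, 10.30 and 10.15 in siSCR cells (0.95 ± 0.12, adjusted p = 8.55e-06). Snora31 (0.83 ± 0.11), Snora74a (0.79 ± 0.11), Snora75 (0.75 ± 0.16), Snora33 (0.70 ± 0.12) and Snora44 (0.67 ± 0.086) followed, and all 23 had effects above 0.

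Box C/D RNAs gave 9 higher and 1 lower of 31, or 5 higher without siSCR 1. Snord118, the U8 RNA of ribosomal RNA processing, led them (0.93 ± 0.13, adjusted p = 2.65e-05), and Snord42b was lower (-0.34). Of 12 spliceosomal and other small RNA genes 7 were higher. Rny1, the RNA partner of the Ro protein, had 10.21, 10.18 and 9.45 in siPRMT1 cells, against 9.05, 8.45 and 8.93 in siSCR cells (1.14 ± 0.22). Vaultrc5, the vault RNA (0.82 ± 0.14), the spliceosomal Rnu5g (0.76 ± 0.18) and the minor spliceosomal Rnu12 (0.43 ± 0.10) were higher with Rnu3a, while Rn7sk (-0.01), Terc (-0.01) and Rnu6 (-0.17) were not called. Of 6 non-coding host genes Gas5 alone was higher (0.19). Of 16 proteins of the small nucleolar ribonucleoproteins Snu13 was lower (-0.14), and neither Fbl (-0.05), the methyltransferase of box C/D particles and a PRMT1 substrate, nor Dkc1 (0.10), the pseudouridine synthase, was called.

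MicroRNA genes gave 13 higher and 3 lower of 300, or 5.33% called, against 18.8% of all genes and 3.81% of those in the dimmest bin. The microRNA genes were dim, with a median level of 6.03 in siPRMT1 and 5.90 in siSCR, and the probes lie on precursors or their primary transcripts. The 13 were 4 without siSCR 1, 8 without siPRMT1 1 and 3 without siPRMT1 2, and 8 after quantile normalisation, 21 with median centring and 35 with array weights. Of the 16 called genes, 15 had a mature sequence in RefSeq. Those whose mature forms share a seed are shown, with the seed (bases 2 to 8) in capitals, beside the members of the cluster of miR-17 to miR-92 that were lower.
mmu-let-7c-5p: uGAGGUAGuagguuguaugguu
mmu-let-7d-5p: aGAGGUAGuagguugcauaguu
mmu-let-7f-5p: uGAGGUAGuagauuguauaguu
mmu-miR-130a-3p: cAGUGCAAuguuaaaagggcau
mmu-miR-301a-3p: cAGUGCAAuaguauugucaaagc
mmu-miR-20a-5p: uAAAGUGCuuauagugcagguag
mmu-miR-19b-3p: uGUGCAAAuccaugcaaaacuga
mmu-miR-680: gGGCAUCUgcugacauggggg
The let-7 genes that were called, whose products promote differentiation, share the seed GAGGUAG and were higher: Mirlet7c-1 (0.35 ± 0.11, adjusted p = 0.0336), Mirlet7d (0.39 ± 0.11) and Mirlet7f-1 (0.55 ± 0.17). Members of these families that were not called are not listed here, so these values do not describe a family as a whole. Mirlet7d and Mirlet7f-1 both lie on chromosome 13. Mir130a (0.63 ± 0.21) and Mir301 (0.44 ± 0.12), with the seed AGUGCAA, were higher as well. Mir20a (-0.58 ± 0.13) and Mir19b-1 (-0.60 ± 0.16), which lie in 1 primary transcript on chromosome 14, were lower. Of 12 microRNA genes tested in clusters of ES cells, out of 24 listed, 2 were lower and 10 were not called, with a median of -0.11. The lower ones include Mir19b-1, so this count is not separate from the genes just named. Mir680-1 (0.93 ± 0.20) and Mir680-2 (0.88 ± 0.15), annotated with the same mature miR-680 (seed GGCAUCU), had the largest rises. The third gene called lower, Mir100hg (-0.52 ± 0.14), is a long host transcript.

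In embryoid bodies of day 4 the knockdown of Prmt1 was smaller (-0.63 ± 0.061, against -1.37 ± 0.061 in ES cells). There 18.4% of genes were called, 2272 higher (11.4%) and 1397 lower (7.01%), and the difference between the effects in ES cells and at day 4 was called in 4754 genes (23.8%). Of the 3747 genes called in ES cells, 2624 also had this difference called. These were picked by an effect that is itself a term of the difference, so their share is not comparable with the 23.8%. All 30 genes with the largest rises and falls, picked by the same effect, had the difference called. At day 4, 2 of them were called in the same direction, Car4 (0.80 ± 0.12) and Atf3 (0.41 ± 0.077), 8 in the opposite direction and 20 were not called. The 8 were Fos (-0.51 ± 0.11), Cntd1 (-0.61 ± 0.12), Aldoc (-0.92 ± 0.058), Ndufa4l2 (-1.31 ± 0.10), Ndrg1 (-0.59 ± 0.082), A2m (-1.07 ± 0.085), Arhgef26 (0.89 ± 0.12) and Arg2 (0.43 ± 0.097). The difference in Fos was 2.44 ± 0.16 (adjusted p = 1.91e-09). Fosb had -0.04 ± 0.097 at day 4 and a difference of 2.60 ± 0.14.

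Several lists held many such differences. Of the 45 hypoxia and glycolysis genes, 18 were higher and 2 lower in ES cells and 5 higher and 22 lower at day 4, and 31 had the difference called. Small RNA genes were higher in 30 and lower in 1 in ES cells and higher in 1 and lower in 29 at day 4, with 42 of 66 differences called. Naive genes were higher in 10 of 22 in ES cells and in 0 at day 4, where 11 were lower, and 12 differences were called. Primed epiblast genes were lower in 6 of 17 in ES cells and higher in 12 at day 4, with 13 differences called. Endoderm genes were called higher in 9 of 35 in ES cells and in 28 at day 4, with 23 differences called. Immediate early genes had 26 of 47 differences called and the 2-cell-like genes 24 of 39.

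**Figure D4:**
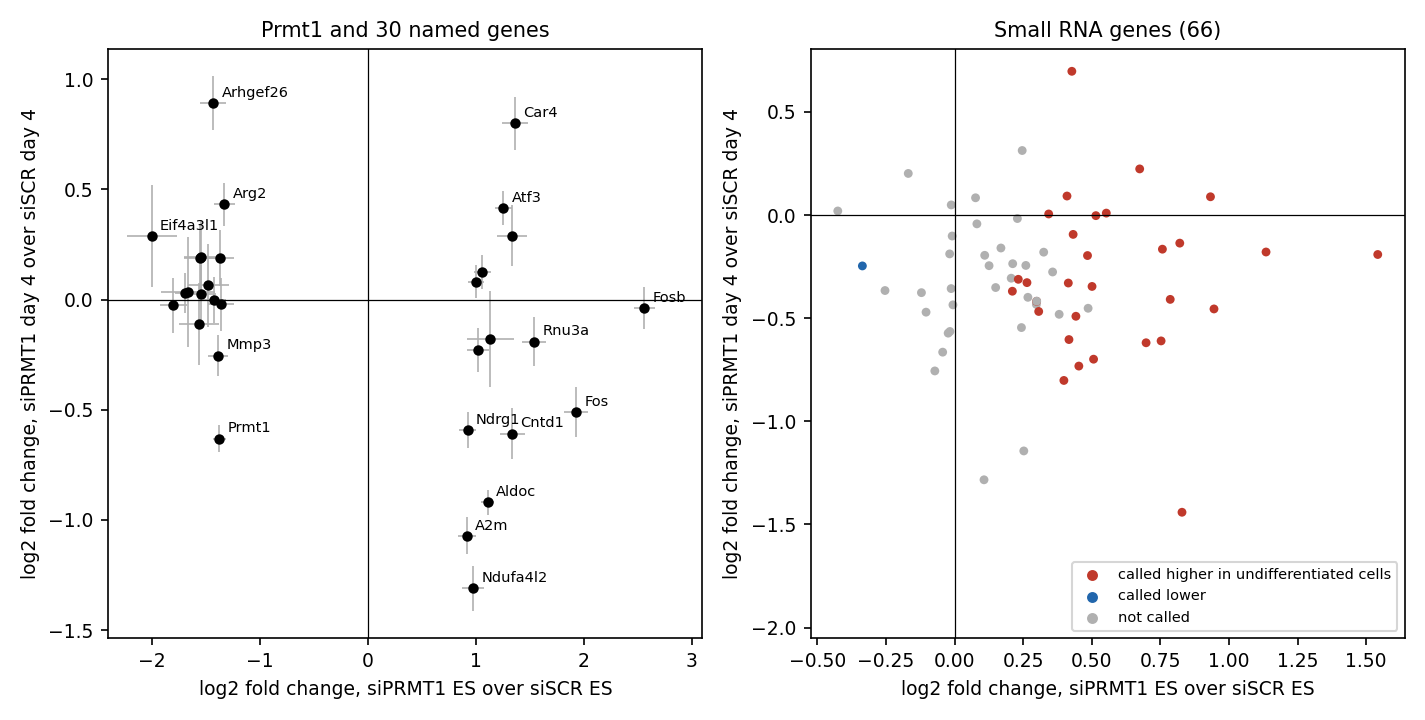
Effects of the knockdown in ES cells are plotted across and effects at day 4 upward, both siPRMT1 minus siSCR in log2 units, for the 15 largest rises, the 15 largest falls and Prmt1 in the first panel and the 66 small RNA genes in the second, where colours mark calls in ES cells. Grey lines are standard errors. Car4 and Atf3 lie above 0 in both states, while 29 of the 66 small RNA genes were called lower at day 4.

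Chromosome 19 had more genes called higher than any other chromosome, as a share of those tested. Its 675 genes had a median effect of 0.0920 in ES cells, against 0.0061 over all genes, with 140 called higher (20.7%) and 43 lower (6.37%). All 7 stretches of 10 Mb were above 0, with medians of 0.0574 to 0.1135. The median was 0.0711 at day 4, where 30.1% of its genes were called higher. It was 0.1433 with median centring, and 0.2038 with the fibroblast covariate, where 0% of its genes were called higher. Each siPRMT1 array showed the shift, by 0.0839, 0.0822 and 0.1316 against the mean of siSCR. Besides the genes named above, Gna14, Hhex (0.45), Kif11 (0.22) and Tdrd1 (0.37) lie there. Chromosome X had a median of -0.0473, with 3.38% called higher and 16% lower. DNA of these cells was not analysed here.

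**Figure D5:**
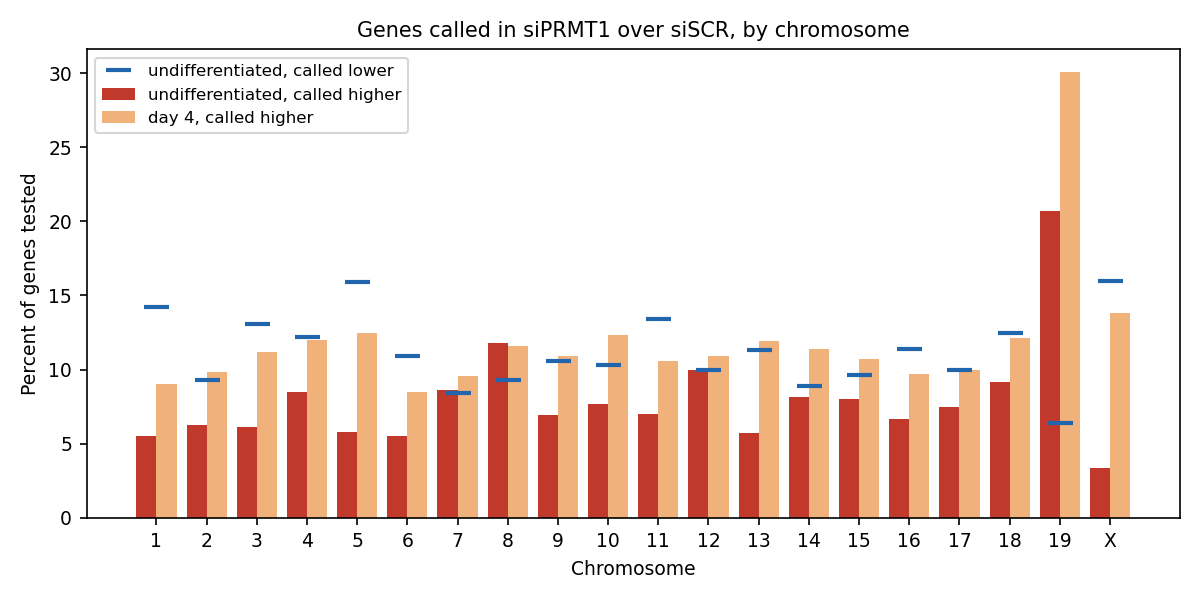
Bars give the percent of the tested genes of each autosome and of chromosome X that were called higher in siPRMT1, in ES cells (red) and at day 4 (orange), and blue dashes the percent called lower in ES cells. Chromosome 19 reaches 20.7% in ES cells and 30.1% at day 4, above the bars of every other chromosome.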

How the data were processed

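Total RNA (300 ng per sample) was measured on Affymetrix whole-transcript arrays as biotinylated cDNA, per the labels' protocols. The authors deposited 1 log2 value per probe set and array, the base being read from the range of 2.14 to 14.5. Summarisation and normalisation are not given in the sources used here, and there are no detection calls. Of 35556 probe sets, 21789 have 1 gene symbol in the platform annotation, 1621 several and 12146 none. The brightest set of 1 symbol was kept per gene, leaving 19938 genes. Group means of all 8 groups were fitted to 24 arrays with limma 3.58.1 in R 4.3.3 (16 residual degrees of freedom), and p-values were adjusted by Benjamini and Hochberg over all genes. The fit was tested on simulated data. Precision is limited by the 3 arrays per group, with a median standard error of 0.0932.

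The text names Prmt1, then the 15 largest rises and 15 largest falls among called genes whose groups did not overlap, passing over predicted genes, RIKEN clones, microRNAs, small nucleolar RNAs, receptor, immunoglobulin and urinary protein families. In each of the 26 lists it names up to 6 called members by size and up to 2 bright members that were not called, and others to describe a role, which were picked with their values known. The members and lists were chosen with earlier results of these data known, and the lists of small RNA host genes and of nucleolar ribonucleoproteins were added after values were seen. Sequences are from RefSeq (GRCm38.p6). Alternatives changed the normalisation, probe set choice, variance model, arrays, covariate and block, and left out each array.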

Additional observations from a re-analysis of the deposited data

Results flagged for a closer look

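The effect of the knockdown differed between ES cells and day 4 embryoid bodies, by the test of the difference itself in limma (ES effect minus day 4 effect, adjusted over all genes), for Prmt1 and for all 30 genes named as the largest rises and falls. These 30 were picked for their size in ES cells, so the direction of the difference is not independent of the choice. Among the rises, the difference was 2.60 for Fosb, 2.44 for Fos, 2.29 for Ndufa4l2, 2.03 for Aldoc, 1.99 for A2m, 1.95 for Cntd1, 1.73 for Rnu3a and 1.52 for Ndrg1. It was 1.31 for Rny1, 1.25 for Gna14, 1.05 for B4galnt2, 0.94 for Mov10l1, 0.92 for Slc44a3, 0.84 for Atf3 and 0.57 for Car4. Atf3 and Car4, with the smallest of these differences, were called higher in both states.

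Among the falls, the difference was -2.32 for Arhgef26, -2.29 for Eif4a3l1, -1.77 for Ppbp, -1.76 for Arg2, -1.74 for Tdpoz2, -1.73 for Tdpoz3, -1.72 for Zfp352 and -1.69 for Pramel20. It was -1.57 for BC147527, -1.56 for Usp17lc, -1.54 for Usp17la, -1.45 for Pramel19, -1.42 for Ccl3, -1.34 for Usp17lb, -1.13 for Mmp3 and -0.74 for Prmt1. Arhgef26 and Arg2 were called higher at day 4, so that their effects had opposite signs in the 2 states. The 2-cell-like genes were dim at day 4 in both siPRMT1 and siSCR: Zfp352 had array values of 7.13 to 7.25 in siPRMT1 and 6.92 to 7.28 in siSCR.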

How the results depend on the processing

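Prmt1, the 30 named genes and the chromosome 19 median kept their sign in every alternative run on them. The median effect over all genes, 0.0061, ran from -0.0203 without siSCR replicate 1 to 0.0901 with the covariate, with -0.0170 after quantile normalisation and 0.0574 with median centring. The 3747 genes called became 7218 with array weights, 5111 when the siSCR arrays treated with DMSO or ATRA were left out, 506 when tested against a 1.2-fold change and 39 with the fibroblast and feeder covariate. With that covariate 36 genes were called at least 2-fold, against 76, and 10 of 368 list members and 7 of 30 named genes were called, and with array weights 554 list members were called. The difference between ES cells and day 4 was called in 7688 genes with array weights, against 4754. Median centring gave 2231 higher and 1560 lower, so that 58.8% of the calls were higher, against 40.6% as deposited, 48.2% with arrays scaled to one SD and 42.7% after quantile normalisation. The chromosome 19 median was 0.1433 with median centring and 0.2038 with the covariate.

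Leaving out single arrays gave 2924 to 3172 genes called, 67 to 88 called at least 2-fold, 4098 to 4553 with a called difference to day 4, 304 to 327 list members, 30 named genes each time, a chromosome 19 median of 0.0700 to 0.1209 and a Prmt1 effect of -1.43 to -1.34. With the replicate number as a block 3756 genes were called over 8 groups, and 2890 with only the arrays of ES cells, against 3248 in these arrays without the block; there 4 genes of amino acid supply, 6 naive genes, 1 ribosomal protein gene, 3 tRNA synthetases, 3 genes of G2 and M and 2 metal and oxidative stress genes were higher, and 2 heat shock genes, 4 sensors and 3 respiratory chain genes lower. Deviations of equal numbers correlated at 0.446, -0.108 and 0.0893, and those of unequal numbers at -0.520 to 0.510. With 3 arrays per group this cannot tell whether the numbers pair the samples. Of the 30 named genes 23 were not called with the covariate. The median standard error of the 30 was 0.3701 there, against 0.1150 without it, so a lost call does not show a smaller effect. Without the dimmest genes 27 of the 30 were tested and called, and in the other alternatives run on single genes all 30 were called. The arrays give no background signal here, so dim genes, of which few were called, have no detection limit.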

Other observations

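Probe sets without a usable gene name also moved. Of 12146 sets with no symbol in the annotation, 507 were called higher and 288 lower in siPRMT1 ES cells (6.55%), 173 of them at least 2-fold. Of 1621 sets with several symbols, 193 were higher and 161 lower (21.8%), 75 of them at least 2-fold. Of 21789 sets with 1 symbol 16.6% were called, and 97 sets were called at least 2-fold. These counts of sets come from a separate fit to all 35556 probe sets, adjusted over all of them, and not from the fit to genes. Long non-coding RNA genes gave 16 higher and 18 lower of 675 (5.04%) in ES cells, against 6 higher and 54 lower at day 4.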
